A study of Mus musculus with 2 samples.

Results

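Spinous suprabasal keratinocytes are the cells of the epidermis that have left the basal layer and not yet reached the granular layer. Here 2890 of the 70658 cells with at least 20 transcripts were placed in this layer, 1692 in the Utx-cKO section and 1198 in the WT section. They were chosen by their own measured transcripts. A cell needed at least 5 transcripts of Krt1, Krt77 and Dsg1a together, more of these than of Krt5, Col17a1 and Itga6, fewer than 5 of Lce1m, Hal, Flg2, Alox12b and Sdr9c7, and fewer than 2 of Krt79. The levels of these 12 genes describe the choice and are no finding.

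The sections were cut at 5 µm from fixed, paraffin-embedded whole skin of female mice on a B6/129 background. Both were read by Xenium, in which labelled probes on the tissue are imaged in cycles until each RNA molecule has a gene and a position, with a custom panel of 480 genes. One section was Utx-cKO, from mice in which Krt14-Cre deletes Kdm6a (also called Utx, a histone demethylase gene on the X chromosome) in tissues that express keratin 14, and the other was from WT controls. Krt14-Cre is active in basal keratinocytes and the epithelium of hair follicles, and spinous cells descend from basal ones. The labels give neither age nor the number of animals.

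With 1 section per group there is no replicate, and no difference between the groups was tested. All intervals below are exact at 95% and cover counting error alone. The tissue lay in 4 separate strips per section, found from the positions of cells after the data were seen. The labels do not say from which animal or body site a strip came. Strips are therefore used as description, and their spread is not that between mice.

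In the epidermis, basal cells are anchored to the basement membrane by integrins and collagen XVII and express keratins such as Krt5. When they detach and move up they start to make Krt1 and the desmosomal cadherin Dsg1a, with Notch signalling as a known driver of this switch. Krt77 is a further keratin of the suprabasal layers. Higher still, granular cells make the proteins and lipids of the cornified barrier, such as filaggrin family proteins, loricrin and the lipoxygenases that process ceramides. Mouse skin with hair has a thin epidermis between follicles, so the spinous layer is shallow in many places.

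The Utx-cKO section held 2875112 gene transcripts of sufficient quality in 52308 segmented cells, with 84.9% of transcripts inside cells. The WT section held 3540184 in 40371 cells, with 74.7% inside. The spinous cells themselves held 119260 transcripts in Utx-cKO and 92944 in WT. Levels below are counts per 1000000 panel transcripts of the cells compared (CPM), and ratios are log2 of Utx-cKO over WT. Probes differ in efficiency, so levels of different genes are not set against each other.

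Kdm6a transcripts were present in the spinous cells of both sections. There were 287 (2407 CPM) in Utx-cKO and 262 (2819 CPM) in WT, a log2 ratio of -0.23 (-0.47 to 0.02). The strips held 1381, 2976, 3339 and 1886 CPM in Utx-cKO and 2998, 2691, 3741 and 1529 CPM in WT, and they overlapped. The ratio was -0.18 in basal cells, 0.09 in granular cells and -0.27 in all remaining cells. Of the Kdm6a transcripts in spinous cells, 77.0% lay over the nucleus in Utx-cKO and 65.3% in WT, and the ratio was 0.10 over nuclei alone. No source used here says whether the Kdm6a probes bind inside or outside the deleted exons. The transcript level therefore does not check the label of the section.

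The spinous cells lay close to cells of the other 2 layers in both sections. Basal cells were taken by the mirror rule, with at least 5 transcripts of Krt5, Col17a1 and Itga6 together and at least as many of these as of the spinous markers (4631 in Utx-cKO, 4791 in WT). Granular cells had at least 5 transcripts of the 5 granular genes (1866 in Utx-cKO, 2285 in WT). The median distance from a spinous cell was 10.0 µm to the nearest basal cell and 10.3 µm to the nearest granular cell in Utx-cKO. In WT these medians were 9.20 and 9.21 µm. The median granular cell was 11.2 µm from a basal cell in Utx-cKO and 10.5 µm in WT. These distances show closeness, and the order of the layers in depth was not measured. Within 30 µm of both a basal and a granular cell lay 86.7% of spinous cells in Utx-cKO and 89.1% in WT. Many cells that met the basal rule lay away from the epidermal surface, since the median basal cell was 87.1 µm from a spinous cell in Utx-cKO and 72.3 µm in WT.

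**Figure D1:**
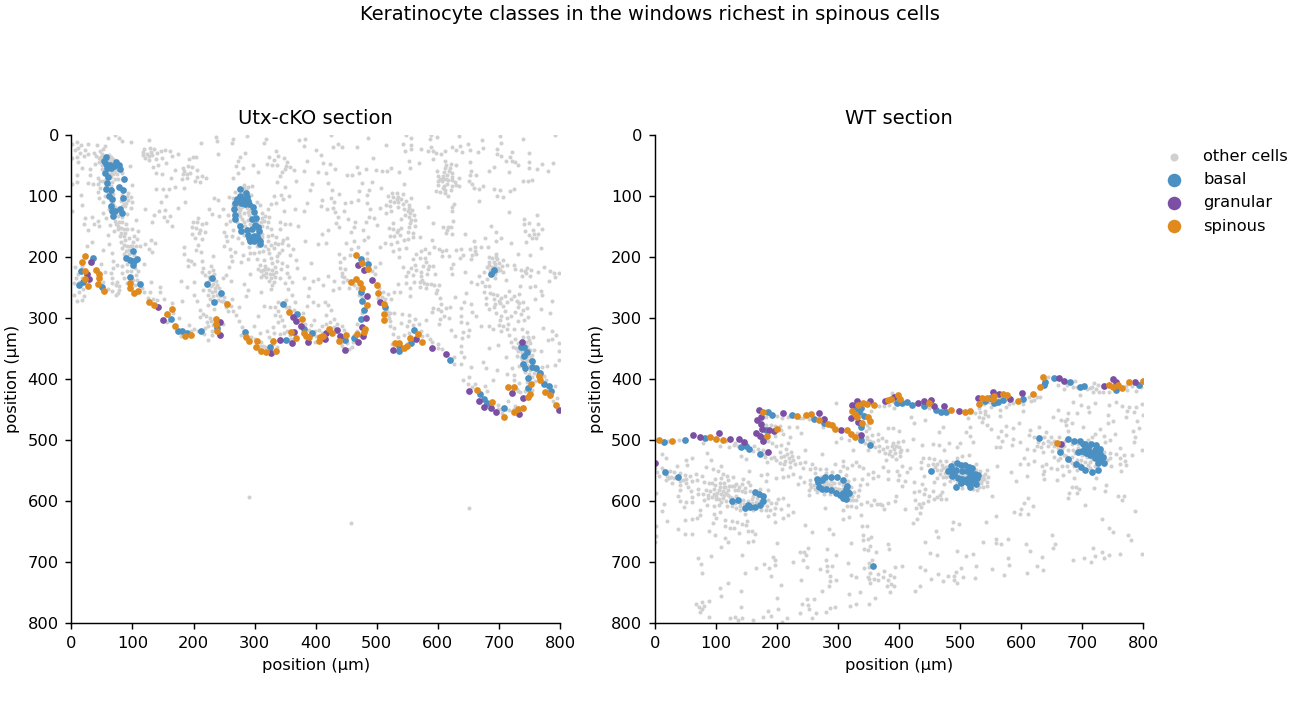
Positions in µm of cells with at least 20 transcripts in the 800 µm window of each section that was centred where spinous cells were most numerous, Utx-cKO at left and WT at right. Spinous cells (orange; 86 in the Utx-cKO window and 54 in the WT window) lie along the surface with granular cells (purple) and basal cells (blue), and further basal cells form rings below the surface.

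Among the nearest 10 cells of a spinous cell, 19.8% were spinous in Utx-cKO and 16.1% in WT. Granular cells made up 20.7% in Utx-cKO and 26.2% in WT, and basal cells 19.6% in Utx-cKO and 22.1% in WT. Cells with under 20 transcripts made up 17.6% in Utx-cKO and 12.8% in WT. The next spinous cell was at a median of 10.1 µm in Utx-cKO and 11.5 µm in WT.

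Single spinous cells were alike in size in both sections. The median cell had 63 transcripts of 41 genes and an area of 71.2 µm2 in Utx-cKO, and 67 transcripts of 43 genes and 69.3 µm2 in WT. Over the nucleus lay 44.6% of their transcripts in Utx-cKO and 47.4% in WT. The median cell held 9 spinous and 2 granular marker transcripts in both sections, and 2 basal ones in Utx-cKO and 3 in WT.

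The label was checked on markers that the rule did not use. Sbsn, the gene of suprabasin, a secreted protein of suprabasal layers, reached 37666 CPM in Utx-cKO and 32557 CPM in WT spinous cells, and was found in 84.6% of these cells in Utx-cKO and 77.7% in WT. It was 1.12 (Utx-cKO) and 0.95 (WT) above basal cells on the log2 scale, and lower than in granular cells by 0.50 (Utx-cKO) and 0.56 (WT). Calm4, a calmodulin-like gene of differentiating keratinocytes, was 2.38 and 2.00 above basal cells in Utx-cKO and WT. It too was below granular cells, with log2 ratios of -0.34 in Utx-cKO and -0.51 in WT. Krt10 and Krt14, the usual markers of the suprabasal and basal layers, were not on the panel. Sbsn and Calm4 were thus higher in spinous than in basal cells, and neither is highest in the spinous cells. The base was all basal cells, of which 1726 of 4631 in Utx-cKO and 1965 of 4791 in WT lay within 30 µm of a spinous or granular cell. Ratios of Sbsn and Calm4 to these nearby basal cells alone are not given.

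The rule cuts through a continuum. In Utx-cKO 189 cells had exactly 5 spinous markers and were kept, and 208 had 4 and were left out. In WT these numbers were 140 and 167. At the granular border, 238 cells with 4 granular transcripts were kept in Utx-cKO and 197 with 5 were left out, against 202 kept and 219 left out in WT. At the basal border, 99 cells with 1 spinous transcript more than basal ones were kept in Utx-cKO and 94 with equal numbers were left out, against 109 kept and 91 left out in WT. A further 190 cells in Utx-cKO and 181 in WT were left out for Krt79, a keratin of the upper hair follicle. Sbsn made up 4.50% of the transcripts of cells on both sides of the granular border in Utx-cKO, and 3.97% inside and 4.04% outside it in WT.

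Spinous cells were a larger share of the kept cells in the Utx-cKO section. The minimum of 20 transcripts kept 37395 of 52308 segmented cells in Utx-cKO and 33263 of 40371 in WT. With a minimum of 10 transcripts the ratio of shares was 1.16. They made up 4.52% (4.32 to 4.74) of the kept cells in Utx-cKO and 3.60% (3.40 to 3.81) in WT, a ratio of 1.26. Of the basal, spinous and granular cells together they made up 20.7% in Utx-cKO and 14.5% in WT, a ratio of 1.43. There were 0.907 spinous cells for each granular cell in Utx-cKO and 0.524 in WT. The strips overlapped. Among the cells of the 3 layers the spinous share was 32.3, 20.1, 13.3 and 22.1% in the Utx-cKO strips and 16.2, 10.6, 8.89 and 27.2% in the WT strips. Strip 4 of WT exceeded 3 of the 4 Utx-cKO strips, and the ratio over kept cells lay between 1.05 and 1.57 when any 1 strip was left out. The difference between sections was thus smaller than that between strips of the same section. A fixed minimum of markers takes more cells where cells are deeper, while the fixed limit on granular markers takes fewer. Leaving out cells under 40 transcripts (14029 in Utx-cKO and 8845 in WT) and thinning the rest to 40 gave a ratio of 1.35 over kept cells, against 1.46 with that minimum alone. Among the 3 layers the thinned ratio was 1.22. Thinning gave 1678 spinous cells in Utx-cKO and 1295 in WT, against 1391 and 993 with that minimum alone. It left 593 granular cells in Utx-cKO and 639 in WT. Thinned cells reach the granular limit less often, and how many thinned spinous cells were granular at full depth was not counted. The thinned ratios are thus not shares of the same cells.

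**Figure D2:**
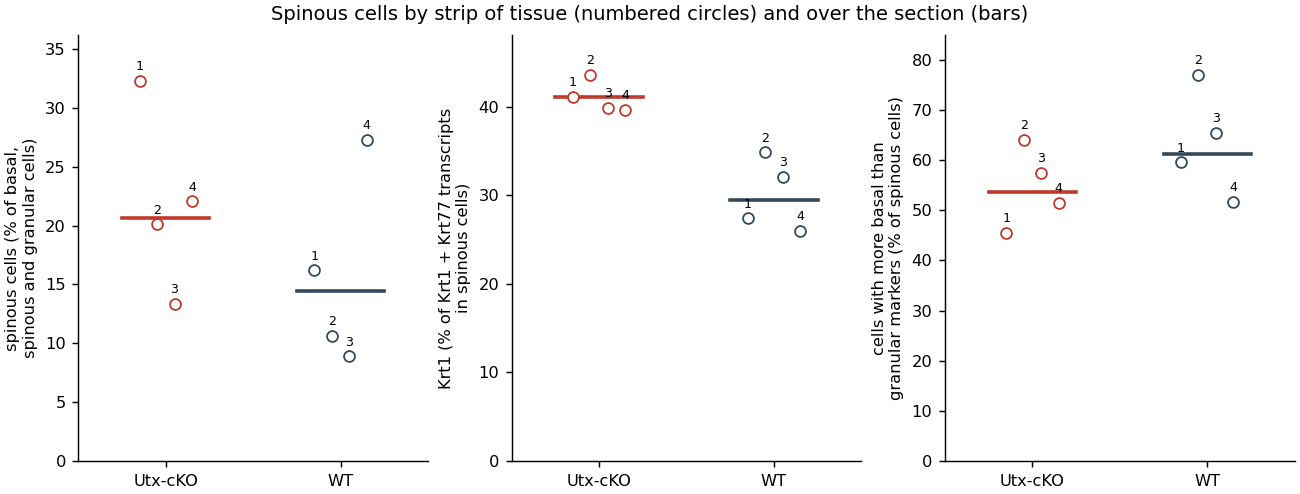
Values by strip (circles, numbered 1 to 4 in each section) and over the whole section (bars), Utx-cKO left of WT in each panel. Strips overlap in the spinous share and in the share of cells with more basal than granular markers, while the Krt1 share of Krt1 and Krt77 transcripts is 39.6 to 43.6% in the Utx-cKO strips and 26.0 to 34.8% in the WT strips.

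The 3 marker genes that chose the cells did not have the same balance in the sections. Krt1 was at 51275 CPM in Utx-cKO and 32374 CPM in WT, a log2 ratio of 0.66 (0.60 to 0.73). Krt77 was at 73604 CPM in Utx-cKO and 77670 CPM in WT (-0.08), and Dsg1a at 27084 CPM in Utx-cKO and 26801 CPM in WT (0.02). Krt1 thus made up 41.1% of Krt1 and Krt77 transcripts in Utx-cKO and 29.4% in WT. By strip the share was 41.1, 43.6, 39.9 and 39.6% in Utx-cKO and 27.4, 34.8, 32.0 and 26.0% in WT, with no overlap. The CPM of Krt1 did overlap, at 64801, 54662, 34542 and 52311 in the Utx-cKO strips and 28714, 38951, 23596 and 41968 in the WT strips. The Krt1 share was 41.5% in basal cells of Utx-cKO and 27.5% in those of WT, and 31.9% in granular cells of Utx-cKO and 22.5% in those of WT. Since the rule used all 3 genes in the same cells, these values describe the cells chosen.

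Levels were next set beside those of basal and granular cells of the same section. Of 211 genes with at least 100 counts over both sections in spinous cells and not in the rule, 53 (25.1%) were at least 1.5 times above basal cells in both sections and 38 (18%) were at least 1.5 times below. Against granular cells, 32 (15.2%) were above and 19 (9%) below. These layers were chosen on transcripts of the same cells, so the contrasts describe the layers and are not tests of them.

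The 10 genes furthest above basal cells had several roles. Dsc1, a desmosomal cadherin of the upper layers, was at 5375 CPM in spinous cells of Utx-cKO and 4756 CPM in those of WT, with log2 ratios over basal cells of 2.93 and 2.77. Acer1, an alkaline ceramidase of differentiating keratinocytes, was 2.79 and 2.65 above in Utx-cKO and WT, and Abca12, which carries glucosylceramides into lamellar granules, 2.83 and 2.46. Acsl1 and Elovl4, which activate and elongate fatty acids, were between 2.40 and 2.63 above in both sections. The envelope genes Ivl (involucrin), Lor (loricrin) and Crct1 were above basal cells by 2.40, 2.68 and 2.63 in Utx-cKO and by 2.27, 2.20 and 2.13 in WT. Pla2g2f, a secreted phospholipase of the epidermis, and Grhl3, a transcription factor of barrier formation, complete the 10. Taking only basal cells within 30 µm of a spinous or granular cell as the base gave smaller ratios in the same direction for all 10. For Dsc1 they were 1.79 (Utx-cKO) and 1.76 (WT).

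Acer1 and Acsl1 did not go on to a higher level in granular cells. Acer1 was at 211, 1459 and 1382 CPM in basal, spinous and granular cells of Utx-cKO, and at 233, 1463 and 1214 CPM in those of WT. Acsl1 was at 1730, 10708 and 10271 CPM in the 3 layers of Utx-cKO, and at 2198, 11943 and 10028 CPM in those of WT. The other 8 of the 10 were higher in granular than in spinous cells of both sections. Both sections thus had the same order of layers for these genes.

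The genes furthest below basal cells include Postn (periostin, an extracellular matrix protein), Ptn (the growth factor pleiotrophin), Aqp3 (a water and glycerol channel), Sfrp1 (a secreted Wnt antagonist), the collagen VI genes Col6a1 and Col6a2, and Dsg3 (the desmosomal cadherin of lower layers). Ptn was at 713 CPM in spinous and 13351 CPM in basal cells of Utx-cKO, and at 656 and 13056 CPM in those of WT. Against nearby basal cells it was lower by 1.43 in Utx-cKO and 2.13 in WT on the log2 scale, far less than the -4.23 and -4.31 against all basal cells. Capn2, Enah and Sod1 complete the 10. For Capn2 the ratio to nearby basal cells was -0.48 in Utx-cKO and -1.48 in WT.

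The 5 genes furthest below granular cells were Tgm1, Aloxe3, Ugcg, Il18 and Hrnr. Tgm1, the transglutaminase that crosslinks envelope proteins, was at 671 CPM in spinous and 3350 CPM in granular cells of Utx-cKO, and at 861 and 3131 CPM in those of WT, giving log2 ratios of -2.32 and -1.86. Aloxe3, a lipoxygenase of the ceramide pathway, Ugcg, which makes glucosylceramide, Il18, a cytokine gene, and Hrnr (hornerin, an envelope protein) were at -1.99, -1.75, -1.45 and -1.37 in Utx-cKO and -1.61, -1.41, -1.13 and -1.44 in WT. The 5 genes furthest above granular cells were Capn2, Aqp3, Tyrobp, Ctsw and Alox5ap. Tyrobp, Ctsw and Alox5ap are known from leukocytes, and all 3 were lower in spinous cells than in nearby basal cells of both sections.

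**Figure D3:**
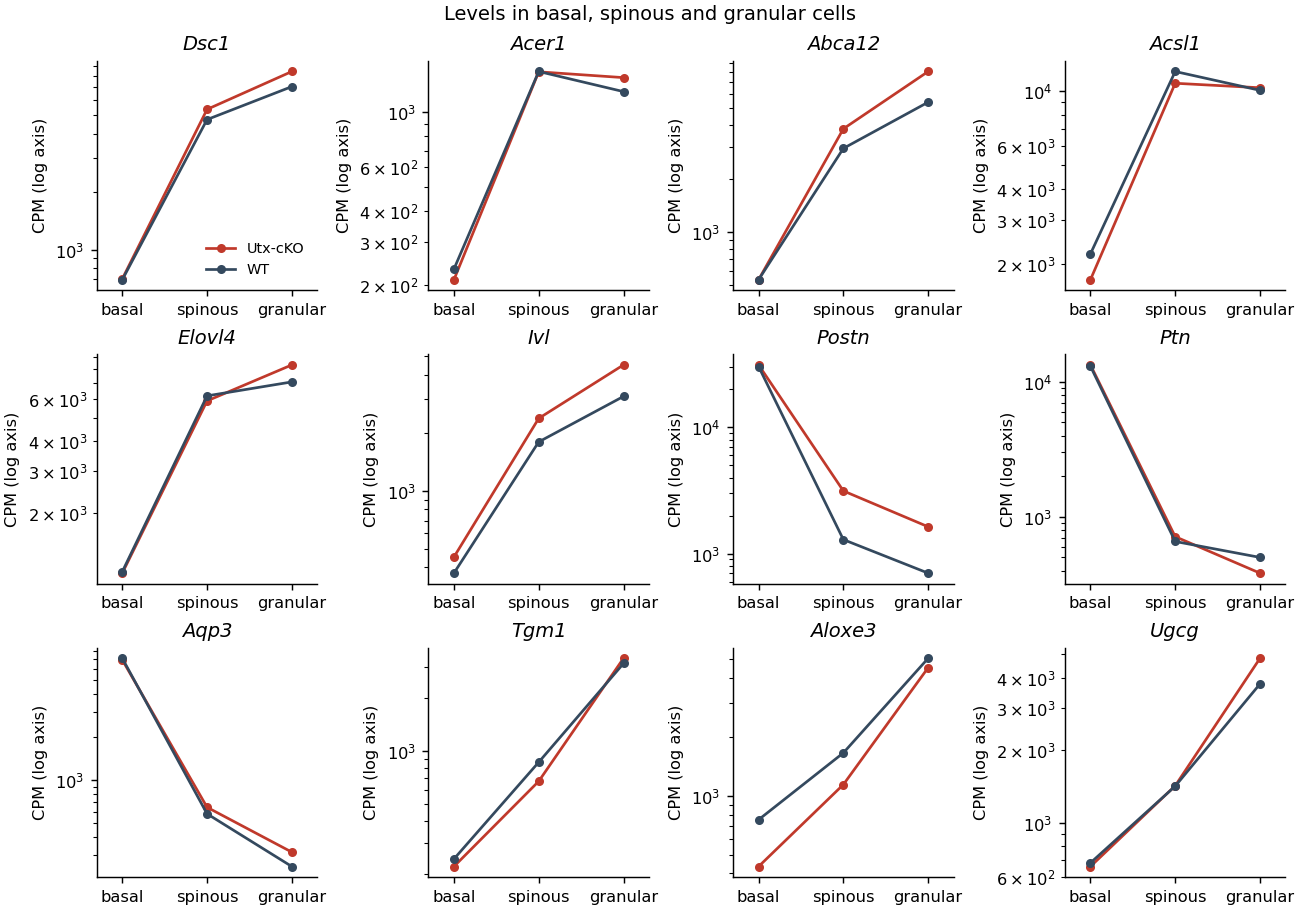
Levels in CPM (log axes) in basal, spinous and granular cells, for the 6 genes furthest above basal cells (Dsc1 to Ivl), the 3 furthest below (Postn, Ptn, Aqp3) and the 3 furthest below granular cells (Tgm1, Aloxe3, Ugcg), with Utx-cKO in red and WT in dark blue. Both sections follow the same course, and Postn is at 3136 CPM in Utx-cKO and 1291 CPM in WT spinous cells. Basal values are over all basal cells, many of them away from the epidermal surface.

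For 9 of 10 granular genes looked at after the data were seen, a smaller share of transcripts lay over the nucleus in spinous than in granular cells of both sections. Of the 10, Lce1m, Hal, Flg2, Alox12b and Sdr9c7 are in the rule, which limits their numbers in spinous cells. Asprv1, Lor, Crct1, Cdsn and Hrnr are outside the rule, and all of them were among the 9. The exception was Hal, at 26.0% in Utx-cKO and 29.0% in WT spinous cells, against 32.7% in Utx-cKO and 28.6% in WT granular cells. Alox12b had only 21 transcripts in Utx-cKO and 35 in WT spinous cells. Its shares in Utx-cKO were 38.1% in spinous and 38.4% in granular cells. Of Lce1m transcripts in spinous cells, 6.4% were over the nucleus in Utx-cKO and 10.2% in WT, against 19.9% in Utx-cKO and 18.0% in WT granular cells. Crct1 was at 8.1% in Utx-cKO and 12.2% in WT spinous cells, against 24.5% in Utx-cKO and 21.4% in WT granular cells. Asprv1 was at 13.3% in Utx-cKO and 19.0% in WT spinous cells, against 24.7% in Utx-cKO and 24.2% in WT granular cells. The rule genes of the spinous layer did not differ in this way, with Krt1 at 45.0% in Utx-cKO and 48.8% in WT spinous cells and 42.0% in Utx-cKO and 44.0% in WT granular cells. How far transcripts of adjoining granular cells were counted in spinous cells was not tested.

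Between the sections, 14 of 222 genes (6.31%) were at least 1.5 times higher in spinous cells of Utx-cKO, and 17 (7.66%) at least 1.5 times lower. Outside the rule these were 13 of 211 (6.16%) and 17 of 211 (8.06%), since Krt1 is in the rule. As mean counts per cell, with no scaling to the class total, 10 of 222 genes were higher and 35 lower. This fold is a rule of size, not a test, and the median log2 ratio of the 222 genes was -0.04. The other 258 panel genes had fewer than 100 counts over both sections and were not compared. Without any 1 strip, 7 of the higher genes and 9 of the lower genes stayed past 1.5-fold. Among the 222 genes, all Utx-cKO strips were above all WT strips for 3 (1.35%), which were Calm4, Pkm and Tap2. All were below for 8 (3.6%), among them Cpe, Defb1, Dst, Faah, Htra1, Rbp2 and Sfrp1. The same counts in the other layers were 28 higher (7.69%) and 12 lower (3.3%) of 364 genes in basal cells, and 26 higher (9.67%) and 32 lower (11.9%) of 269 in granular cells.

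The highest ratio was that of Gsdmc, a gasdermin, a family of proteins that form membrane pores after cleavage. It had 169 transcripts (1417 CPM) in Utx-cKO and 41 (441 CPM) in WT. The strips were at 1757, 2329, 359 and 1230 CPM in Utx-cKO and 133, 538, 340 and 949 CPM in WT, so that strip 3 of Utx-cKO lay among the WT strips. The log2 ratio was 1.68 (1.18 to 2.21). It was found in 8.5% of spinous cells in Utx-cKO and 3.1% in WT. The ratio was 1.12 in basal and 2.42 in granular cells.

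The 3 Sprr2a genes, which encode small proline-rich precursors of the cornified envelope, were all past 1.5-fold. Sprr2a2 was at 2594, 7569, 826 and 4182 CPM in the Utx-cKO strips and 966, 3572, 680 and 1951 CPM in the WT strips, and strips overlapped widely. Its log2 ratio was 1.25 (0.98 to 1.52). Sprr2a1 was at 5065 CPM in Utx-cKO and 2722 CPM in WT, a ratio of 0.90 (0.68 to 1.11), and Sprr2a3 at 1023 CPM in Utx-cKO and 592 CPM in WT (0.79, 0.32 to 1.28). Without strip 2 of Utx-cKO, which was the highest for each, the ratio of Sprr2a3 was 0.22. Basal cells (1.23, 1.00 and 1.14 for Sprr2a2, Sprr2a1 and Sprr2a3) and granular cells (1.00, 0.88 and 1.41) also had ratios past 1.5-fold.

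These 3 genes are near-identical copies, and no source used here says how the probes tell them apart, so their values may share transcripts. In RefSeq's windows of 300 bases around the annotated starts (GRCm38.p6), Sprr2a1 and Sprr2a2 were identical throughout, and Sprr2a3 shared a run of 272 bases with both, shifted by 28 bases. A stretch of 30 bases before the start of Sprr2a3, on the + strand, is shown with its exact match in the other copies. It lies at chr3:92215777-92215806 for Sprr2a1, chr3:92250589-92250618 for Sprr2a2 and chr3:92285274-92285303 for Sprr2a3.
Sprr2a1: tccaaaatgcctttccagaatagaacccag
Sprr2a2: tccaaaatgcctttccagaatagaacccag
Sprr2a3: tccaaaatgcctttccagaatagaacccag
The letters are the same in the 3 copies because an exact match was looked for. The distance to the annotated start differs, at 58, 58 and 30 bases.

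Postn had 374 transcripts (3136 CPM) in Utx-cKO and 120 (1291 CPM) in WT. The strips were at 1381, 5466, 2047 and 3143 CPM in Utx-cKO and 1166, 1811, 1275 and 949 CPM in WT. The log2 ratio was 1.28 (0.98 to 1.59), with 1.22 in granular and 0.04 in basal cells, where the gene was far more abundant at 31191 CPM in Utx-cKO and 30279 CPM in WT. The basal ratio is over all cells that met the basal rule, and one for nearby basal cells alone is not given. Among spinous cells with no granular marker the ratio was 0.48.

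Genes of glycolysis and low-oxygen metabolism were the group with the highest median after the Sprr genes. Of 5 on the panel 4 could be compared, and the median log2 ratio was 0.63. Past 1.5-fold higher were 2, Pkm and Ndufa4l2, where 6.31% of all genes compared were, and none was lower. The list is short and was chosen with earlier results known. Pkm, the pyruvate kinase gene, was at 7405, 8604, 7038 and 10386 CPM in the Utx-cKO strips and 3364, 5285, 6250 and 6327 CPM in the WT strips, with no overlap. Its log2 ratio was 0.74 (0.58 to 0.90), against 0.40 in basal and 0.47 in granular cells. Ndufa4l2, a mitochondrial protein gene induced by low oxygen, was at 4771 CPM in Utx-cKO and 2539 CPM in WT (0.91, 0.69 to 1.14). Tpi1 and Ldha, for triose phosphate isomerase and lactate dehydrogenase, were at 0.52 and 0.30. Without strip 1 of WT the ratio of Pkm was 0.52, under 1.5-fold.

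Tap2, a subunit of the transporter that loads peptides for MHC class I, was at 2301, 3234, 2585 and 2678 CPM in the Utx-cKO strips and 1499, 2202, 1105 and 1476 CPM in the WT strips. The lowest Utx-cKO strip was above the highest WT strip. The log2 ratio was 0.81 (0.53 to 1.11), against 0.45 in basal and 0.49 in granular cells. Cstdc5, a cystatin family gene, had 136 transcripts in Utx-cKO and 52 in WT (1.03, 0.56 to 1.52). Alox5ap, needed for leukotriene synthesis, had 167 in Utx-cKO and 78 in WT (0.74), and its ratio was 0.26 without strip 3 of Utx-cKO. Notch1 was at 6943 CPM in Utx-cKO and 4465 CPM in WT (0.64, 0.47 to 0.81). The gene for the filaggrin protease Asprv1 was at 4293 CPM in Utx-cKO and 2776 CPM in WT (0.63, 0.41 to 0.85), and its ratio over nuclei alone was 0.20.

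Atf3 and Krt1 complete the 14 higher genes. Atf3, a stress-induced transcription factor, had 105 transcripts in Utx-cKO and 52 in WT, a ratio of 0.65 that was -0.89 without strip 4 of Utx-cKO, which stood at 2186 CPM.

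**Figure D4:**
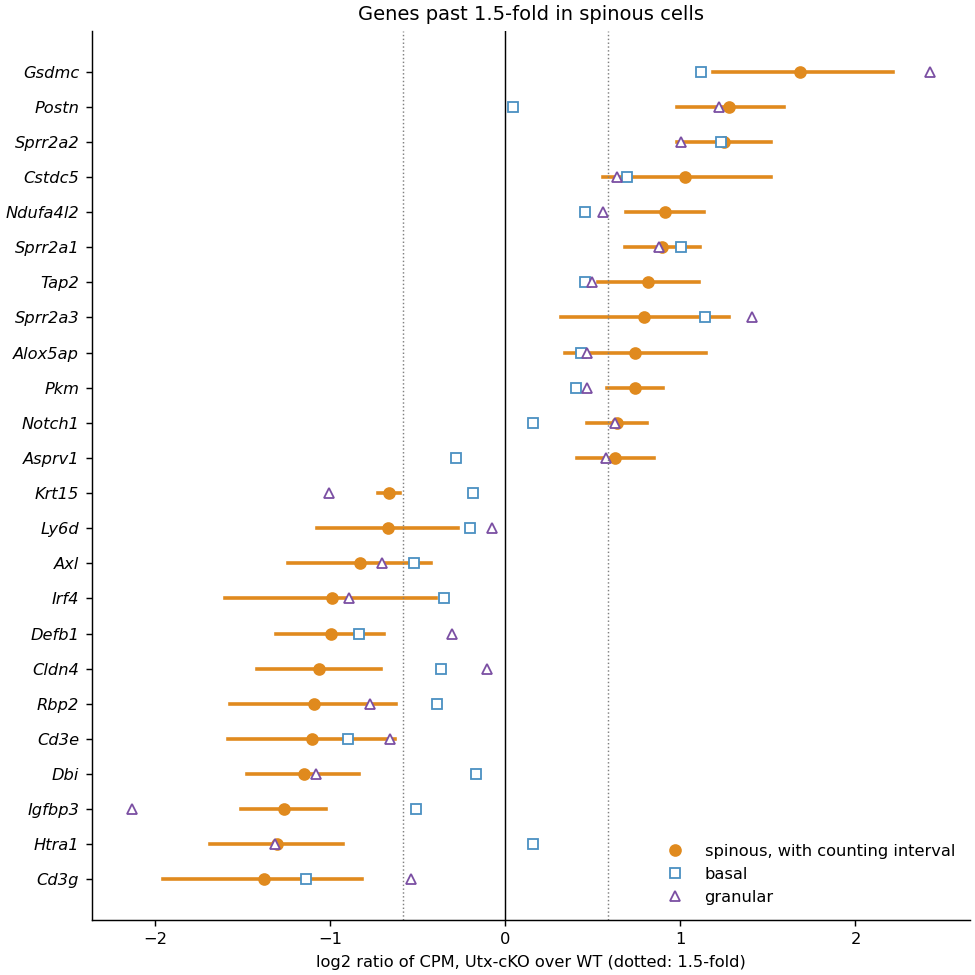
Log2 ratios of CPM, Utx-cKO over WT, for the 24 named genes past 1.5-fold in spinous cells (orange circles with 95% counting intervals), with the ratios in basal cells (blue squares) and granular cells (purple triangles). Ratios of Postn and Htra1 are near 0 in basal cells (0.04 and 0.16) and at 1.22 and -1.31 in granular cells.

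The lower genes had other roles. Htra1, a secreted serine protease, was at 377, 679, 1257 and 683 CPM in the Utx-cKO strips and 1832, 1272, 2551 and 1687 CPM in the WT strips, with no overlap. Its log2 ratio was -1.30 (-1.69 to -0.93), with -1.31 in granular and 0.16 in basal cells. Within Utx-cKO it was lower by 1.49 in spinous than in nearby basal cells, and within WT by 0.47.

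Igfbp3, which binds insulin-like growth factors, was at 1548, 226, 2837 and 2569 CPM in the Utx-cKO strips and 3398, 4747, 2338 and 8014 CPM in the WT strips. The ratio was -1.26 (-1.51 to -1.02) in spinous, -2.13 in granular and -0.51 in basal cells. Rbp2, a carrier of retinol inside cells, was at 669, 615, 323 and 492 CPM in the Utx-cKO strips and 1199, 1419, 935 and 844 CPM in the WT strips, with no overlap, and its ratio was -1.09 (-1.57 to -0.62). Dbi, which binds acyl-CoA, was at 1090 CPM in Utx-cKO and 2421 CPM in WT (-1.15), against -0.17 in basal and -1.08 in granular cells.

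Cldn4, a claudin of tight junctions, had 110 transcripts (922 CPM) in Utx-cKO and 179 (1926 CPM) in WT, a ratio of -1.06 (-1.42 to -0.71), against -0.37 in basal and -0.11 in granular cells. Defb1, a beta-defensin, was at 711, 1100, 1616 and 1367 CPM in the Utx-cKO strips and 1799, 1957, 4337 and 1634 CPM in the WT strips. Over the sections it was at 1224 CPM in Utx-cKO and 2442 CPM in WT, and its ratio was -0.56 without strip 3 of WT, -0.33 with a quality score of at least 30 and -0.36 with cells thinned to 20 transcripts. Axl, a receptor tyrosine kinase, was at -0.83 (-1.24 to -0.42) and Ly6d, a surface protein of the Ly6 family, at -0.67 (-1.07 to -0.27). Krt15, a keratin of basal and bulge cells, was at 32589, 18178, 45961 and 26374 CPM in the Utx-cKO strips and 40373, 50940, 60031 and 40228 CPM in the WT strips, a ratio of -0.66 (-0.73 to -0.60), and strips overlapped.

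Some calls turned on which cells or transcripts were counted. Among spinous cells with no granular marker, the ratio was 0.45 for Notch1, 0.46 for Cstdc5 and -0.20 for Irf4. Over nuclei alone it was 0.53 for Sprr2a1, 0.49 for Sprr2a3, -0.55 for Axl and -0.31 for Ly6d. With cells thinned to 20 transcripts it was 0.57 for Tap2 and -0.43 for Rbp2, and without strip 2 of Utx-cKO it was -0.48 for Krt15. All of these are under 1.5-fold with the direction kept. The 17 lower genes are completed by Tgm3, described with the cornified genes, and by Sfrp1 (-0.66), Il33 (-0.64), Cpe (-0.63) and Plod3 (-0.62).

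Genes of T cells were also among the lower ones. Cd3g had 41 transcripts in Utx-cKO and 83 in WT (-1.38, -1.95 to -0.82), Cd3e 61 in Utx-cKO and 102 in WT (-1.10, -1.58 to -0.63), and Irf4, a transcription factor of lymphocytes and dendritic cells, 40 in Utx-cKO and 62 in WT (-0.99, -1.60 to -0.40). Of 9 T and NK cell markers 6 were on the panel, and none was at 0. They summed to 365 transcripts (3061 CPM) in Utx-cKO and 384 (4132 CPM) in WT, with strips from 2442 to 3598 CPM in Utx-cKO and from 2373 to 5867 CPM in WT. Cd3d (16 in Utx-cKO, 28 in WT), Prf1 (19 in Utx-cKO, 30 in WT) and Cd8a (17 in Utx-cKO, 19 in WT) were too few to compare, and Thy1 was at 0.43. The part of T cells in these values was not tested. At least 1 of these markers was found in 14.8% of spinous cells in Utx-cKO and 14.1% in WT.

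Markers of other cell types were also counted in the spinous cells. Sebocyte markers summed to 561 in Utx-cKO and 543 in WT. Fibroblast markers summed to 73 in Utx-cKO and 79 in WT, endothelial markers to 44 in Utx-cKO and 25 in WT, and macrophage markers to 48 in Utx-cKO and 30 in WT. Pericyte markers summed to 56 in Utx-cKO and 41 in WT, and melanocyte markers to 37 in Utx-cKO and 25 in WT. Upper hair follicle markers, nearly all of them Krt17, summed to 1363 in Utx-cKO and 746 in WT, though cells with 2 or more Krt79 had been left out. Negative control probes, which match no mouse gene, gave 78 counts in Utx-cKO and 25 in WT spinous cells, which is 654 CPM in Utx-cKO and 269 CPM in WT. One probe gave 44 of the 78 in Utx-cKO and one gave 12 of the 25 in WT, and the median probe had 1 count in Utx-cKO and 0 in WT.

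**Figure D5:**
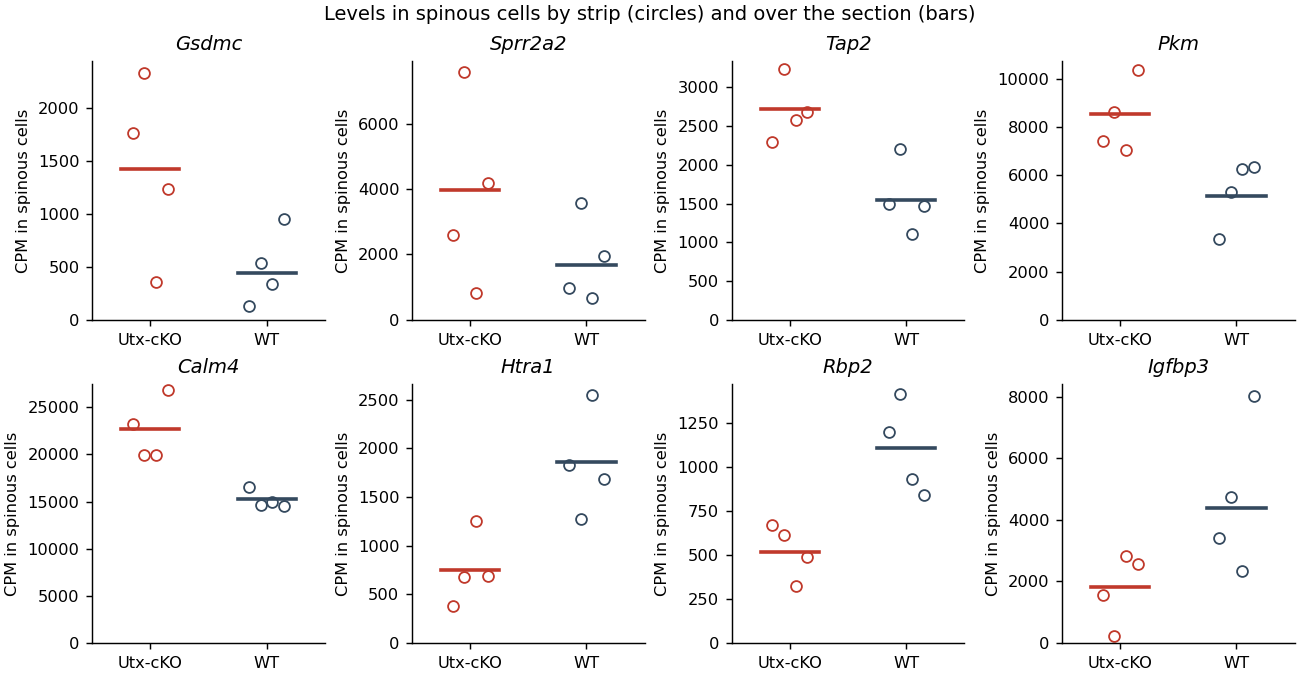
CPM in spinous cells by strip (circles) and over the section (bars), Utx-cKO left of WT, for 8 genes. Strips do not overlap for Tap2, Pkm, Calm4, Htra1 and Rbp2, and they overlap for Gsdmc, Sprr2a2 and Igfbp3. Of all 222 genes compared, all Utx-cKO strips were above all WT strips for 3 (1.35%) and below for 8 (3.6%).

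Genes of spinous differentiation leaned higher without reaching 1.5-fold, except for Notch1. All 10 panel members were compared, 1 was higher past 1.5-fold and none lower, and their median log2 ratio was 0.22 against -0.04 over all genes compared. Calm4 was at 23218, 19924, 19892 and 26839 CPM in the Utx-cKO strips and 16522, 14631, 14965 and 14552 CPM in the WT strips, with no overlap, and its ratio was 0.57 (0.47 to 0.66). Its ratio was 0.19 in basal and 0.40 in granular cells. Notch3 was at 0.39, Mal2 at 0.40 and Sbsn at 0.21. The transcription factor genes Klf4 (-0.18) and Ovol1 (-0.26), both known in the exit from the basal state, were on the other side of 0.

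Of 9 basal genes on the panel 8 were compared, 1 (Krt15) was lower past 1.5-fold and none higher, and the median was -0.23. Krt5, Col17a1 and Itga6 are in the rule, which limits their levels. Of the 5 others compared 4 were below 0, with a median of -0.39. Dst, for the hemidesmosomal linker dystonin, was at 11755, 13164, 16158 and 14458 CPM in the Utx-cKO strips and 16556, 16393, 29591 and 17715 CPM in the WT strips, with no overlap and a ratio of -0.52. Trp63, the master transcription factor of stratified epithelium, was at -0.18 and the laminin gene Lamb3 at -0.39. The integrin gene Itgb1 was on the other side, at 0.10. Genes of this list outside the rule summed to 53874 CPM in Utx-cKO and 78768 CPM in WT, most of it Krt15.

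Cells inside the rule could lean toward either adjoining layer. Of spinous cells, 908 (53.7%) in Utx-cKO and 734 (61.3%) in WT had more basal than granular transcripts, and 539 (31.9%) in Utx-cKO and 317 (26.5%) in WT had more granular than basal ones. The strips overlapped, with 45.4 to 64.0% leaning basal in Utx-cKO and 51.7 to 77.0% in WT. The difference is one of the genes used in the rule. Ratios were therefore taken within each kind of cell. Among basal-leaning cells they were 1.80 for Gsdmc, 1.42 for Postn, 0.51 for Calm4, 0.84 for Pkm and -1.18 for Htra1. Among granular-leaning cells they were 1.46, 1.06, 0.52, 0.65 and -1.56 for the same genes. Krt1 was at 0.66 and 0.67. The 24 named genes past 1.5-fold were chosen by their ratios over all spinous cells, and most of these cells belong to the 2 kinds. A shared direction is therefore partly built into the choice and is no separate check of the ratios. All 24 kept their direction in both kinds of cell, and the counting intervals of the 2 kinds overlapped for 22. The other two were Defb1, at -1.54 (-1.99 to -1.10) in basal-leaning and -0.26 (-0.82 to 0.31) in granular-leaning cells, and Ndufa4l2, at 0.78 (0.52 to 1.04) and 1.65 (1.07 to 2.28). In all, the kinds were at least 1.5-fold apart for 9 genes, which were these 2, Irf4, Alox5ap, Igfbp3, Cstdc5, Tap2, Sprr2a1 and Cd3e, and the gaps were not tested.

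Granular and cornified genes were split. Of 17 on the panel 12 were compared, 2 were higher (Sprr2a1 and Asprv1) and 1 lower (Tgm3), and the median was 0.14. Tgm3 had 28 transcripts in Utx-cKO and 88 in WT, a ratio of -2.01, but strip 3 of WT alone stood at 3189 CPM and the ratio was 0.33 without it. Ivl was at 0.41 and Lor at 0.21. The Sprr family had 8 genes on the panel, of which 3 were compared and all 3 were higher, and the rest had 64 transcripts or fewer in each section. These were below the minimum of 100 counts, and their ratios went both ways. Sprr1b had 46 in Utx-cKO and 13 in WT (1.46), Sprr2b 64 and 30 (0.73) and Sprr2d 15 and 9 (0.38). Sprr1a had 50 in Utx-cKO and 44 in WT (-0.18), and Sprr2h 23 and 20 (-0.16). The genes compared are the near-identical Sprr2a copies.

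Barrier lipid genes showed no call in either direction among 12 compared of 13, with a median of -0.09. Abca12 was highest at 0.37, and Aloxe3 lowest at -0.54. Desmosome and junction genes had 7 compared of 8, 1 lower (Cldn4) and none higher, with a median of -0.26. Dsg3 was at -0.54 and Cldn1 at -0.57, while Dsc1 was at 0.18 and Dsg1b at 0.08.

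Chromatin regulators, the group of Kdm6a itself, had 9 compared of 10, none past 1.5-fold either way and a median of 0.03. Kdm6b, the related H3K27 demethylase gene, was at 0.10, Ezh2, which makes the opposing mark, at 0.03, and Kmt2d, a partner of Kdm6a in its complex, at 0.26. Epithelial transcription factors had 7 compared of 9, none past 1.5-fold and a median of 0.09. Lipid synthesis genes had 4 compared of 8, none past 1.5-fold and a median of -0.32.

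In the smaller groups, cell cycle genes had 3 compared of 5 with no call, with Mki67 at -0.54 and Top2a at 0.21. Retinoid genes had 4 compared of 7, with Rbp2 lower and Crabp2 at -0.42. Interferon and chemokine genes had 4 compared of 8, with Defb1 and Irf4 lower. Stress keratins and alarmins had 2 compared of 7, Il33 lower at -0.64 and Krt17 at 0.52. Krt16, a keratin of wounded and hyperproliferative skin, had 43 transcripts in Utx-cKO and 14 in WT, and Krt6b 20 in Utx-cKO and 8 in WT. Both were too few to compare.

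Ratios past 1.5-fold in spinous cells were set beside those of all basal and all granular cells. Of the basal cells, 1726 of 4631 in Utx-cKO and 1965 of 4791 in WT lay within 30 µm of a spinous or granular cell. Most basal cells were thus not next to the spinous layer. Leaving out Krt1, which is in the rule, 13 higher and 17 lower genes were also compared in basal cells. There 6 of the 13 were higher past 1.5-fold, where 7.69% of all genes compared were, and 4 of the 17 lower, where 3.3% were. In granular cells 7 of the 13 were higher, where 9.67% of all genes compared were, and 11 of the 17 lower, where 11.9% were. Sprr2a1, Sprr2a2 and Sprr2a3, whose values may share transcripts, are 3 of the 13, and all are among the 6 and the 7. The layers share their sections and strips, and in part their borders, so these counts are not independent of each other. The difference between layers was not tested.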

How the data were processed

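Members, layers and gene lists were chosen with earlier results of these data known. Deposited were a cell table per section, with transcript counts, positions and areas (µm) of each segmented cell, and a transcript table, with gene, cell, nucleus overlap and a quality score for each molecule. Software for decoding and segmentation: not given in the sources used here. Gene transcripts scoring 20 or more were counted per cell, and the counts equalled the deposited totals in all 52308 Utx-cKO and 40371 WT cells. Cells under 20 transcripts were left out. No doublet caller was run.

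For each class of cells, counts were added up by gene and divided by the class total. Genes needed 100 counts over both sections. Intervals are Poisson (levels), Clopper-Pearson (shares) and conditional binomial (ratios), and they leave out differences between animals. The ratio step was tested on simulated data. Strips are connected areas of at least 1000 cells on a grid of 100 µm. The sections shared 2 cell names, which are arbitrary labels of imaged cells.

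Genes named between sections are, outside the rule and past 1.5-fold, those with the 12 highest and 12 lowest ratios whose direction held when any 1 strip was left out. Others are the 10 highest and 10 lowest over basal cells, the 5 highest and 5 lowest over granular cells, the rule genes, Kdm6a and list members. Atf3, Cpe, Plod3, Sfrp1, Tgm3 and genes picked because their strips do not overlap were named after their values were seen. Some values are not reported here. Alternatives varied the quality score, nucleus overlap, cell and gene minimums, the rule, scaling, thinning and strips. Python 3.11.15, numpy 2.4.6, pandas 2.3.3, scipy 1.17.1 and matplotlib 3.10.9 were used.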

Additional observations from a re-analysis of the deposited data

How the results depend on the processing

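No paired analysis was possible because each group is 1 section and strips carry no shared number. The count of higher genes (14) was 9 with no granular marker allowed in a cell, where only 80 genes could be compared, and 14 to 20 with any 1 strip left out. The count of lower genes (17) was 10 with 3 times as many spinous as basal markers, 5 with no granular marker, 4 with cells thinned to 20 transcripts (107 genes), 35 with mean counts per cell (10 higher) and 10 with a minimum of 200 counts. It was 13 to 32 with any 1 strip left out, the highest without strip 3 of Utx-cKO. The genes compared also differed, with 145 for 3 times the basal markers, 80 for no granular marker and 165 for 200 counts, against 222. The cause of the changed counts was not tested. The ratio of spinous shares (1.26) was 1.16 with a minimum of 10 transcripts per cell, 1.46 with 40, 1.59 with 3 times the basal markers, 1.35 with at least 10% spinous markers, 1.43 among the 3 layers, 1.46 among spinous, granular and nearby basal cells, 1.35 with cells thinned to 40 transcripts (1.22 among the 3 layers), and 1.05 to 1.57 with any 1 strip left out. The last of these denominators and the thinning were added after the data were seen. Of 648 ratios of 25 named genes under 26 alternatives, 585 lay within the counting interval of the value reported and 63 lay outside it. None past 1.5-fold changed sign. Apart from Kdm6a, these genes were named only if their direction held without any 1 strip. The alternatives that leave out a strip could therefore not change their sign. Atf3 and Tgm3, past 1.5-fold but not among these genes, did change sign without 1 strip. Asprv1, Notch1 and Ly6d most often fell under 1.5-fold, in 10, 7 and 7 alternatives. The ratio of Kdm6a, which was not past 1.5-fold, ranged between -0.41 and 0.10 and changed sign over nuclei alone. Genes under 100 counts cannot be compared at this depth.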
